A study of Mus musculus with 38 samples.

Results

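Auts2, Casz1, Cbfa2t3, Ccnd3, Cep85 and Caprin1 are 6 genes that each started transcripts at more than 1 promoter in mouse soleus muscle, and whose promoters moved in opposite directions between the fed state and torpor. They are 6 of 9077 genes, with 13 of 10819 promoters, in a genome-wide map of transcription start sites. Every start-site cluster whose main position lay within 500 bp, on the same strand, of a 5′ end annotated for the gene in GENCODE vM21 was taken as one of its promoters. The genes were chosen by measured values, namely opposite changes of their promoters in torpor, as seen from Pre to Mid in the first sequencing run. All comparisons that hold the Mid or Pre libraries of that run are therefore given below as descriptions without a test. The choice may also have drawn on the other groups and on the second run. Among 458 genes with several promoters, 30 (6.55%) had promoters called in opposite directions in that comparison, and the 6 genes are among these 30 by construction. The 6 genes were chosen with earlier results of these data known. The tests in the second run, and those of Dep and HiT against Fed in the first, may thus not be independent of the choice. The shares over all promoters or genes given beside their counts do not remove this dependence.

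The measurement was CAGE, which captures the capped 5′ ends of RNA, so that each tag marks where a transcript began and 2 promoters of 1 gene are counted apart. RNA came from the soleus, a slow postural muscle of the hind limb, of wild-type C57BL/6J male mice, with 1 library per mouse. In run 1, Pre (4 mice) was fed and sampled on day 1, Mid (8 mice) had food withdrawn on day 2 and was sampled in the torpor period, and Post (4 mice) had food returned and was sampled on day 3. HiT (4 mice) was fasted on day 2 at a high ambient temperature, Fed (4 mice) kept its food on day 2 at a low ambient temperature, and Dep (4 mice) was fasted in the cool but touched gently whenever its oxygen consumption began to drop, so that torpor was prevented. The deposited labels describe the feeding of HiT and Fed differently from the study's methods, and the methods are followed here. In run 2, a separate batch of mice gave 2 Pre, 5 Mid and 3 Post libraries. Whole muscle was sampled, so fewer cells of a type and less RNA per cell cannot be told apart.

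Alternative promoters let 1 gene answer several signals, because each promoter carries its own set of transcription factor sites. A change of promoter can leave the summed output of a gene as it was while exchanging its first exon, its 5′ untranslated region or, where the new start lies beyond the start codon, the protein. Torpor is a regulated fall of metabolic rate and body temperature, which mice enter when food is short and the surroundings are cool.

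The gene products belong to different processes. AUTS2 is a nuclear protein that joins a variant Polycomb repressive complex 1, CASZ1 is a zinc-finger transcription factor of heart and neural development that works with the NuRD chromatin complex, and CBFA2T3 (ETO2, MTG16) is a corepressor of the ETO family best known in blood formation. CCND3 is a D-type cyclin that activates CDK4 and CDK6 in the G1 phase of the cell cycle. CEP85 is a centrosome protein, and CAPRIN1 is an RNA-binding protein that assembles stress granules together with G3BP1.

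In each gene, the promoter that was higher in Mid than in Pre in run 1 is called the rising promoter and the one that was lower the falling promoter, and these names are kept for all other comparisons whatever happened there. The rising promoter was the upstream one in Auts2, Cbfa2t3, Ccnd3 and Cep85, and the downstream one in Casz1 and Caprin1. The pairs lay from 580 bp (Caprin1) to 1004486 bp (Auts2) apart. The main position of none of the 13 promoters lay in an exon of an annotated transcript that begins elsewhere in the gene.

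**Figure D1:**
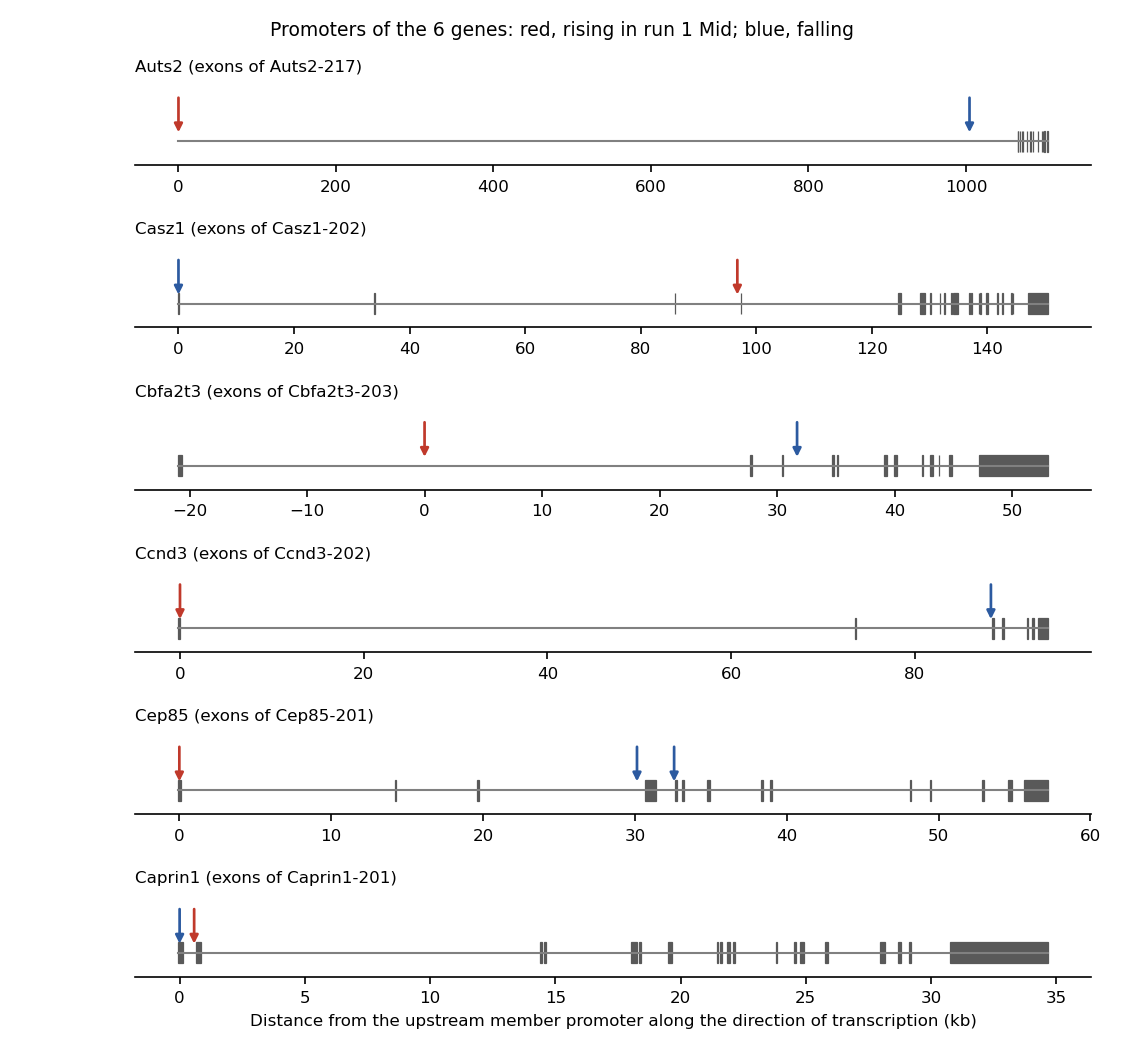
Positions of the 13 promoters along each gene, in kilobases from the upstream promoter in the direction of transcription, with the exons of 1 annotated transcript as grey boxes. Red arrows are rising promoters and blue arrows falling promoters of run 1, and in Auts2, Cbfa2t3, Ccnd3 and Cep85 the red arrow is the upstream one.

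Reference sequence reached the start site of 4 of the 13 promoters. These were the falling promoters of Casz1 and Ccnd3 and the rising promoters of Cbfa2t3 and Cep85. What is shown is the sequence leading up to the start site. The comparisons below count tags per promoter and compare no exons. The lines give 101 bases of RefSeq sequence (GRCm38.p6), 5′ to 3′ on the transcribed strand, with the last pair in capitals marking the dinucleotide at which transcription most often starts, a pyrimidine followed by a purine.
Casz1, falling, chr4:148804331-148804431, plus strand: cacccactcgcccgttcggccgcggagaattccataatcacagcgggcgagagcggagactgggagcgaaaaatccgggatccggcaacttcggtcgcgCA
Cbfa2t3, rising, chr8:122678167-122678267, minus strand: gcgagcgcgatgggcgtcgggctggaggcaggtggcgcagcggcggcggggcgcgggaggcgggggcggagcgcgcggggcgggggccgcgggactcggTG
Ccnd3, falling, chr17:47593394-47593494, plus strand: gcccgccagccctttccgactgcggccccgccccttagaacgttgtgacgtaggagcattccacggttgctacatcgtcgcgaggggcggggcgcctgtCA
Cep85, rising, chr4:134187052-134187152, minus strand: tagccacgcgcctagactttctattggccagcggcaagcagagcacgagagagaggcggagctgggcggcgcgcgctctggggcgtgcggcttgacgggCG
The 4 stretches were rich in G and C, at 63.4% in Casz1, 86.1% in Cbfa2t3, 67.3% in Ccnd3 and 69.3% in Cep85. The capitals lie 2 bases downstream of the deposited cluster position. At that offset 78.3% of 4723 clusters with reference sequence held a pyrimidine followed by a purine, against 22.7% at the deposited position itself.

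Windows of RefSeq sequence of 300 bases touched 6 of the 13 promoters and were searched on both strands for 8 short motifs. The CCAAT box (CCAAT) was in the windows of Cbfa2t3 (rising), Ccnd3 (falling) and Cep85 (rising), against 37.41% of all 32851 promoters, and the GC box (GGGCGG) was in 5 of the 6 windows, against 35.66%. The FOXO site (GTAAACA) was in 1 window, that of the rising Ccnd3 promoter, against 3.65% of all promoters. The letters of the TATA box (TATAAA, in 13.62% of all), the E-box (CACGTG, 7.15%), the cAMP response element (TGACGTCA, 1.79%), the AP-1 site (TGANTCA, 7.81%) and the D-box (TTANGTAA, 2.32%) were in none of the 6 windows. None of these motifs contains another, and a match is a description of the sequence only.

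Libraries of run 1 held 18257657 to 39176649 tags in clusters and those of run 2 held 9359994 to 20914855, and the 13 promoters had 33 to 2154 tags per library. Levels are TMM-scaled CPM, the tags of a promoter relative to all tags of its library in clusters, given as mean ± SD with the number of mice n. The markers of slow muscle were all present, with 7 of 7 genes measured and a summed level of 9527 CPM or more in every library. Mid replicate 6 of run 1 stood apart from the other 7 Mid libraries at 3 promoters (Auts2 falling, Casz1 rising, Cep85 falling) and in the Cbfa2t3 share, always towards the levels of Pre, and without it the descriptions of Mid against Pre kept their direction at all 13 promoters. Where a fold change is called, the test was edgeR's quasi-likelihood test with Benjamini-Hochberg adjustment over all promoters (FDR under 0.05). Promoter usage was tested separately as an unequal change of the promoters of 1 gene, which library scaling cannot alter, adjusted over all genes with several promoters.

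Casz1 is transcribed from a distal promoter and from one close to its start codon, whose changes from Pre to Mid lay 2.90 apart on the log2 scale in run 1 and 2.09 apart in run 2. Its falling promoter (chr4:148804429, plus strand) begins Casz1-201 and Casz1-202, whose coding models hold 1166 and 1762 residues. Its rising promoter (chr4:148901158) lies 96729 bp downstream at the start of the partial model Casz1-206, and since the start codon of all these models is a further 570 bp downstream, both promoters lie before the same start codon. In run 1 the falling promoter stood at 11.1 ± 0.659 CPM in Pre (n = 4) and 6.35 ± 1.17 in Mid (n = 8), while the rising promoter went from 2.70 ± 0.557 to 11.5 ± 2.45. These are log2 differences of -0.81 and 2.09 (standard errors 0.14 and 0.20), or 0.570-fold and 4.25-fold, and the lowest, median and highest of the 8 Mid libraries at the rising promoter were 6.50, 11.3 and 14.4 CPM. In Post the rising promoter stood at 2.36 ± 0.279 CPM (n = 4), within the spread of Pre.

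The second batch of mice gave the same exchange at Casz1. The rising promoter stood at 4.28 and 3.69 CPM in the 2 Pre libraries, at 12.04, 7.23, 9.54, 9.80 and 9.79 in the 5 Mid libraries and at 2.91, 3.71 and 2.58 in the 3 Post libraries. All Mid libraries lay above all Pre and all Post libraries. The rising promoter was higher in Mid than in Pre by 1.28 on the log2 scale (standard error 0.23, FDR 0.00822) and the falling promoter was lower by a log2 difference of -0.82 (standard error 0.16, FDR 0.0112), and both differences turned in Post against Mid, at -1.66 (FDR 0.000406) and 1.21 (FDR 0.000275). In run 1, as a description, the summed tags of Casz1 were higher in Mid than in Pre by 0.39 on the log2 scale (standard error 0.0945). They were lower in Post than in Mid by a log2 difference of -0.39 (standard error 0.0946). In run 2 the summed tags differed by -0.02 between Mid and Pre (standard error 0.12, FDR 0.924), and the opposite changes of the promoters were not visible in that sum. The calls of Mid against Pre rested on having 2 Pre libraries, with FDR 0.0993 and 0.0601 at the falling and rising promoter without Pre replicate 5 and 0.0736 and 0.0904 without Pre replicate 6.

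Cbfa2t3 moved from a start inside the gene towards another further upstream. The rising promoter (chr8:122678169, minus strand) begins Cbfa2t3-201 and Cbfa2t3-202, with coding models of 559 and 585 residues. It is itself 20724 bp beyond the start codon of Cbfa2t3-203, the longest complete coding model (620 residues), which begins further upstream. The falling promoter (chr8:122646474) lies 31695 bp downstream, at the 5′ end of the noncoding transcript Cbfa2t3-205. That is 3976 bp beyond the start codon of Cbfa2t3-201 and Cbfa2t3-202. The rising promoter went from 11.1 ± 1.71 CPM in Pre (n = 4) to 16.2 ± 3.25 in Mid (n = 8) of run 1, and the falling promoter from 8.05 ± 0.783 to 3.29 ± 1.03, log2 differences of 0.55 and -1.29 (standard errors 0.16 and 0.16). In run 2 the falling promoter stood at 16.3 and 15.9 CPM in Pre, at 9.03, 12.4, 5.73, 5.46 and 6.42 in Mid and at 16.7, 15.4 and 15.1 in Post, with Mid below both other groups in every library. It was lower in Mid than in Pre by a log2 difference of -1.04 (standard error 0.27, FDR 0.0344), and higher in Post than in Mid by 1.01 (FDR 0.0149). The first call was lost with the sequencing lane as a term (FDR 0.0708), in a fit of Mid and Pre alone (FDR 0.0668) and without any 1 of Pre replicates 5 and 6, Mid replicates 9, 11, 12 and 13 and Post replicates 5 and 6 (FDR 0.0505 to 0.171). The second was lost with the lane (FDR 0.108) and without Post replicate 5 (FDR 0.0511). The rising promoter gave 0.42 for Mid against Pre (95% interval 0.08 to 0.76, FDR 0.114), which was not called, and -0.56 for Post against Mid (FDR 0.0158), which was, though not with the lane (FDR 0.0783) or without Post replicate 6 (FDR 0.0683) or 7 (FDR 0.0519).

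Ccnd3 moved between promoters whose complete coding models share a start codon. The rising promoter (chr17:47505217, plus strand) serves 13 annotated transcripts and lies 88438 bp before the start codon. The falling promoter (chr17:47593492) lies 88275 bp further along and 163 bp before that same start codon, at the 5′ end of Ccnd3-205, and complete coding models on both sides hold 292 residues. The coding part of the partial model Ccnd3-220, at the rising promoter, begins at chr17:47505221 instead. The rising promoter of run 1 went from 2.32 ± 0.752 CPM in Pre (n = 4) to 6.12 ± 1.55 in Mid (n = 8), and the falling promoter from 8.71 ± 0.739 to 5.60 ± 1.27, log2 differences of 1.39 and -0.64 (standard errors 0.22 and 0.15). In run 2 the rising promoter stood at 4.19 and 4.06 CPM in Pre, at 10.5, 11.2, 10.1, 13.4 and 11.6 in Mid and at 5.40, 3.81 and 5.40 in Post, so that Mid did not overlap the other groups. It was higher in Mid than in Pre by 1.46 (standard error 0.19, FDR 0.00191) and lower in Post than in Mid by a log2 difference of -1.21 (FDR 0.000615). The falling promoter of run 2 stood at 11.9 and 11.6 CPM in Pre and at 7.20, 11.7, 13.6, 8.02 and 6.15 in Mid, groups that overlap, with a log2 difference of -0.33 (95% interval -0.93 to 0.28, FDR 0.501). Summed over both promoters, Ccnd3 was lower in Post than in Mid by a log2 difference of -0.55 (FDR 0.00828), and the value for Mid against Pre was 0.40 (standard error 0.13, FDR 0.0910).

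Auts2 has the most distant pair. Its rising promoter (chr5:132543183, minus strand) lies 161 bp from the nearest annotated 5′ end, that of the noncoding transcript Auts2-207, the largest such offset among the 13 promoters, and with a window of 100 bp it would not count as an Auts2 promoter. Its falling promoter (chr5:131538697), 1004486 bp downstream, begins Auts2-208, a coding model of 789 residues with the start codon another 63681 bp on. From Pre to Mid of run 1 the rising promoter went from 4.47 ± 0.235 CPM (n = 4) to 8.50 ± 4.59 (n = 8), where the lowest, median and highest libraries stood at 4.60, 6.85 and 18.7, so the Mid range began within that of Pre. The falling promoter went from 24.0 ± 1.43 to 15.6 ± 3.76 CPM, and the log2 differences were 0.92 and -0.61 (standard errors 0.29 and 0.12). In run 2 the rising promoter stood at 3.14 and 3.96 CPM in Pre, at 7.52, 6.99, 8.66, 6.35 and 9.31 in Mid and at 7.04, 8.34 and 9.001 in Post. Mid lay above Pre without overlap, by 1.13 on the log2 scale (standard error 0.21, FDR 0.00937), and without Pre replicate 5 the value of 0.97 was not called (FDR 0.104), nor was the change in a fit of all 38 libraries (FDR 0.0571). Post did not return towards Pre at this promoter, with 0.06 against Mid (95% interval -0.31 to 0.43, FDR 0.852). The falling promoter was lower in Mid than in Pre by a log2 difference of -0.87 (standard error 0.10, FDR 0.00113) and higher in Post than in Mid by 0.42 (FDR 0.0122, but 0.235 with the lane and 0.0577 without Post replicate 6). Auts2 was the 1 gene of the 6 whose summed tags differed in Mid against Pre of run 2, by -0.46 (FDR 0.00983), and leaving out either Pre library ended that call (FDR 0.0554 and 0.103).

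Cep85 has 3 promoters, of which the upstream one rose and both internal ones fell. The rising promoter (chr4:134187054, minus strand) begins Cep85-201 and Cep85-202, with coding models of 761 and 759 residues. The internal promoters at chr4:134156913 (Cep85-209, noncoding) and chr4:134154468 (Cep85-208, a retained-intron transcript) lie 15951 and 18396 bp beyond the start codon of those models. The upstream promoter went from 10.4 ± 1.15 CPM in Pre (n = 4) to 15.7 ± 3.27 in Mid (n = 8), the promoter at chr4:134156913 from 23.3 ± 0.970 to 13.9 ± 1.45, and that at chr4:134154468 from 20.04 ± 2.00 to 11.3 ± 4.31, all in run 1. Their log2 differences were 0.59, -0.75 and -0.83 (standard errors 0.12, 0.08 and 0.18). In run 2 the promoter at chr4:134154468 stood at 24.4 and 16.1 CPM in Pre, at 11.9, 15.7, 6.61, 10.2 and 11.02 in Mid and at 27.96, 34.1 and 31.2 in Post, with Mid below both other groups. None of the 3 promoters passed the test on its own for Mid against Pre in run 2, at 0.49 (FDR 0.196), -0.62 (FDR 0.121) and -0.86 (FDR 0.0609) in the same order. DESeq2 called the last of these at FDR 0.0191 and the likelihood ratio test at 0.0195. The quasi-likelihood test of edgeR called it without Mid replicate 10 (FDR 0.0187), under library size scaling (FDR 0.0462) and in a fit of all 38 libraries (FDR 0.0255), which also called the promoter at chr4:134156913 (FDR 0.00760). Post against Mid gave 1.48 at chr4:134154468 (standard error 0.22, FDR 0.00141, but 0.0718 with the lane) and 0.65 at chr4:134156913 (FDR 0.0492). The latter call was lost with the lane (FDR 0.600), in a fit of Post and Mid alone (FDR 0.0686) and without any 1 of Mid replicates 9, 11 and 12, Post replicates 5 and 6 and Pre replicates 5 and 6 (FDR 0.0665 to 0.202). At the upstream promoter Post against Mid gave -0.55 (95% interval -0.96 to -0.14, FDR 0.0684), which was not called, though DESeq2 (FDR 0.0455), a fit of all 38 libraries (FDR 0.0181) and the test without Mid replicate 10 (FDR 0.0348) called it.

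Caprin1 has the closest pair, and the changes of its promoters from Pre to Mid lay 0.75 apart on the log2 scale in run 1 and 0.61 apart in run 2. The falling promoter (chr2:103797603, minus strand) lies 580 bp upstream of the rising promoter (chr2:103797023), at 663 and 83 bp before a shared start codon, and the coding models from both hold 707 residues. From Pre to Mid of run 1 the rising promoter went from 16.4 ± 1.09 CPM (n = 4) to 23.7 ± 2.75 (n = 8), and the falling promoter from 46.9 ± 2.15 to 40.6 ± 2.97, log2 differences of 0.54 and -0.21 (standard errors 0.09 and 0.07). In run 2 the rising promoter stood at 16.1 CPM in both Pre libraries and at 19.1, 20.5, 24.5, 25.2 and 22.5 in Mid, with no overlap. It was higher in Mid by 0.47 (standard error 0.13, FDR 0.0468) and lower in Post than in Mid by a log2 difference of -0.42 (FDR 0.0277). The first of these calls is near the threshold and was lost under library size scaling (FDR 0.0987), with the lane as a term (FDR 0.0788), in a fit of Mid and Pre alone (FDR 0.0606) and without any 1 of Pre replicates 5 and 6, Mid replicates 11, 12 and 13 and Post replicates 5 and 7 (FDR 0.0548 to 0.217). The second was lost under library size scaling (FDR 0.0880), with the lane as a term (FDR 0.215) and without Mid replicate 11 or 12 or Post replicate 5 or 7 (FDR 0.0532 to 0.120). The falling promoter differed by -0.13 in Mid against Pre (95% interval -0.35 to 0.08, FDR 0.429) and was not called in any of the 4 tested comparisons.

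**Figure D2:**
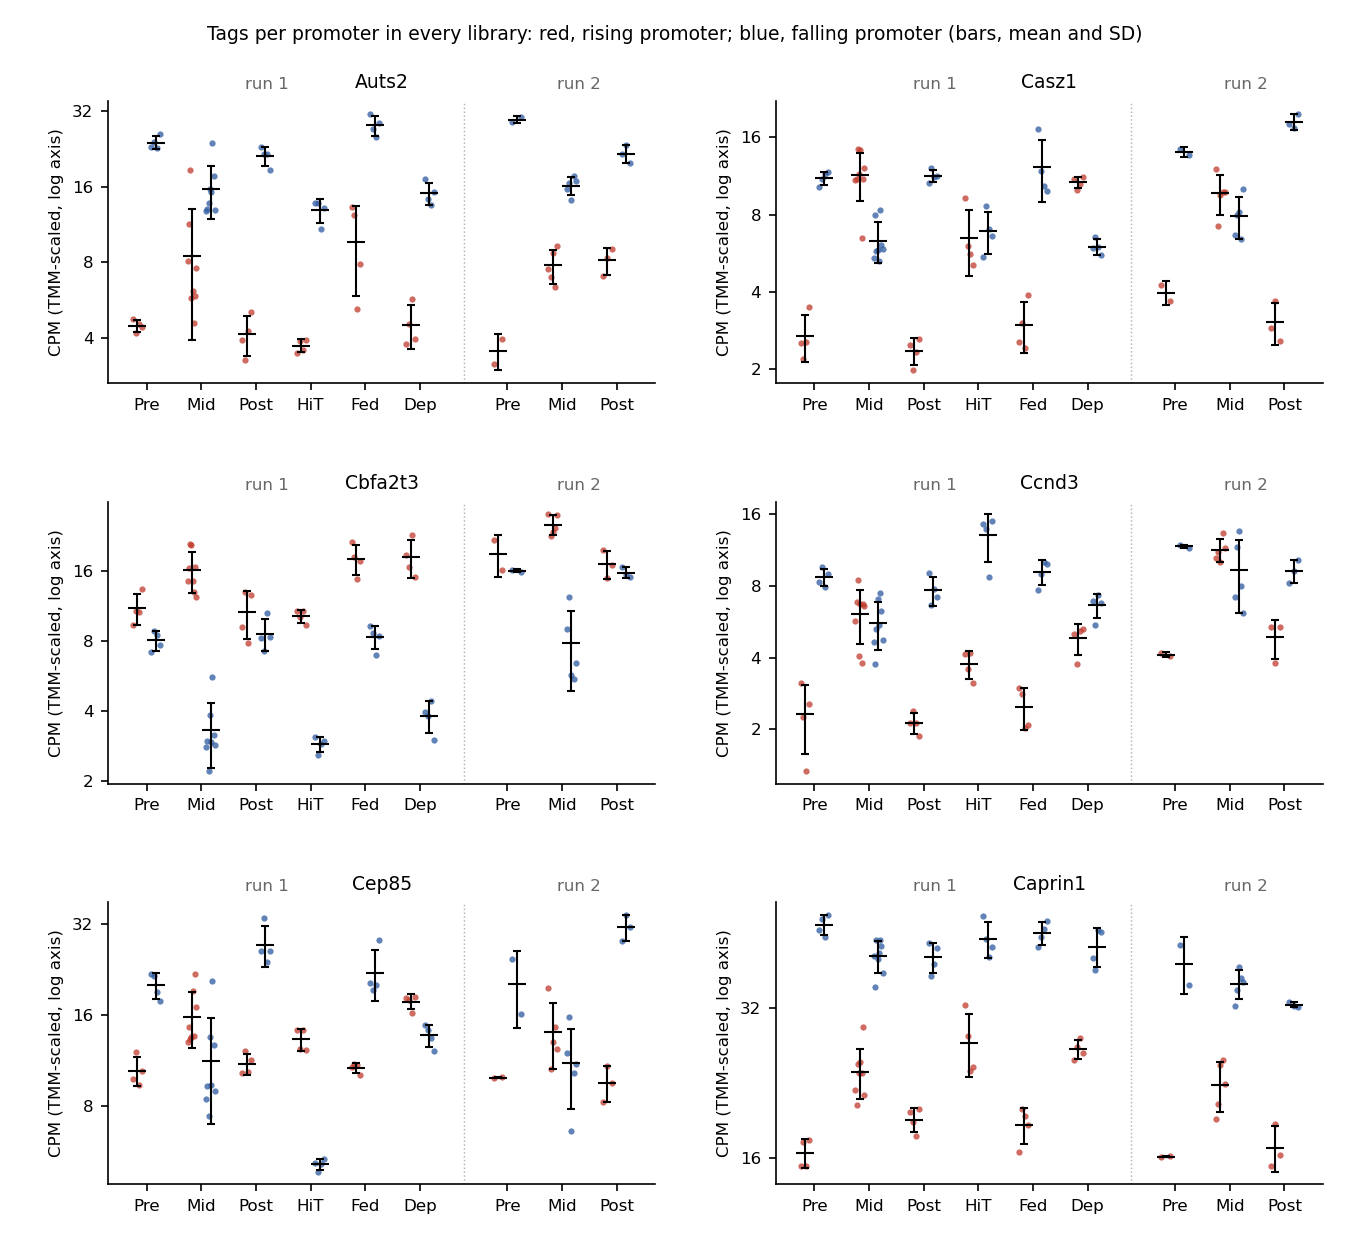
Level of the rising (red) and falling (blue) promoter of each gene in every library, in TMM-scaled CPM on a log axis, with 1 point per mouse, bars for mean and SD, and the runs divided by a dotted line. The chr4:134156913 promoter of Cep85 is not drawn. At Casz1 the red points rise above the blue ones in Mid and Dep of run 1 and Mid of run 2 on average, and lie below them in Pre, Post and Fed.

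In the second batch, all 13 promoters kept the direction of run 1 in Mid against Pre, and the share of all promoters that did so was not counted. At the falling Caprin1 promoter the difference was -0.13, and it was 0.0057 without Pre replicate 5. In this comparison 7 of the 13 promoters were called, where 9.74% of all promoters were called. They were both promoters of Auts2 and of Casz1, the falling promoter of Cbfa2t3 and the rising promoters of Ccnd3 and Caprin1. The count rested on the 2 Pre libraries, and it was 2 without Pre replicate 5 (Auts2 falling and Ccnd3 rising) and 3 without Pre replicate 6 (both of Auts2 and Ccnd3 rising). Promoters of 1 gene called in opposite directions were found in 4 of 459 genes (0.871%), and Auts2 and Casz1 were among these 4. The other 2 were Tnrc6b (0.70, FDR 0.0168, and -1.84, FDR 0.00152) and Tns1 (0.55, FDR 0.0163, and -0.50, FDR 0.0346). Of the summed tags per gene, 10.2% of all genes were called, and of the 6 genes Auts2 was.

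The usage test, which asks whether the promoters of a gene changed by unequal amounts, called all 6 genes in Mid against Pre of run 2, where it called 20.3% of genes with several promoters. The FDR was 1.07e-05 for Auts2, 6.65e-05 for Casz1, 0.00189 for Ccnd3, 0.00202 for Cbfa2t3, 0.0129 for Caprin1 and 0.0244 for Cep85. Without Pre replicate 5 the calls of Caprin1 (FDR 0.204) and Cep85 (FDR 0.243) were lost, and Cep85 was also lost without Pre replicate 6 (FDR 0.0918), without Mid replicate 9 (FDR 0.0801) and without Mid replicate 12 (FDR 0.0648). The log2 ratio of the rising to the falling promoter within each library, which needs no scaling, was higher in every Mid library of run 2 than in both Pre libraries at all 6 genes. The mean differences were 1.99 for Auts2, 2.10 for Casz1, 1.54 for Cbfa2t3, 1.84 for Ccnd3, 1.35 for Cep85 and 0.60 for Caprin1. With 5 against 2 mice an exact permutation test cannot go below p = 0.0952, two-sided, and it gave that value for each gene. How many other genes with several promoters had no overlap between Mid and Pre in such a ratio was not counted.

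Most of these differences turned from Mid to Post of run 2. In Post against Mid 9 of the 13 promoters were called, where 16.4% of all were, and the usage test called 4 of the 6 genes, where it called 33.1%. Casz1 (FDR 1.42e-07), Cep85 (8.57e-05), Cbfa2t3 (0.000143) and Ccnd3 (0.00615) were called, and Auts2 (0.187) and Caprin1 (0.145) were not. Opposite calls within a gene were found in 13 of 459 genes (2.83%), Casz1 and Cbfa2t3 among them. Of the summed tags, 16.8% of all genes were called, and of the 6 genes Cep85 was higher (0.68, FDR 0.00536), Auts2 higher (0.31, FDR 0.0195, and 0.0874 without Post replicate 6) and Ccnd3 lower. The sums of Casz1 and Caprin1 were called only without Mid replicate 13 (FDR 0.0319) and Mid replicate 9 (FDR 0.0459) among the libraries left out in turn. This comparison shares its Mid libraries with Mid against Pre. All 3 Post libraries and 1 Mid library were sequenced on a different lane from the other 4 Mid libraries, and with the lane as a term in the fit, an alternative chosen after seeing the data, 3 of the 13 promoters (both of Casz1 and the rising one of Ccnd3) and 4 of the 6 usage genes were called. Under scaling by library size alone, 62.2% of all calls were higher in Post, against 47.2% after TMM scaling.

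The share of a gene's tags that came from its rising promoter showed the exchange without any scaling. In run 1 the Casz1 share was 19.4% ± 2.72 in Pre (n = 4), 63.8% ± 9.28 in Mid (n = 8) and 17.3% ± 2.32 in Post (n = 4). In run 2 it was 22.8% and 21.3% in Pre, 64.4%, 47.6%, 53.7%, 60.3% and 49.2% in Mid, and 13.9%, 17.6% and 11.5% in Post. The Ccnd3 share went from 20.8% ± 5.49 to 52.0% ± 11.2 and 21.9% ± 3.24 in Pre, Mid and Post of run 1, and from 25.96% ± 0.108 (n = 2) to 55.8% ± 9.58 (n = 5) and 34.4% ± 5.19 (n = 3) in run 2. In both genes the share in every Mid library of run 2 exceeded that of every Pre and Post library.

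The other genes moved over narrower ranges. The Cbfa2t3 share was 57.8% ± 4.02, 82.8% ± 5.81 and 54.9% ± 9.43 in Pre, Mid and Post of run 1, and 53.8% ± 4.82, 76.8% ± 7.18 and 52.0% ± 2.57 in run 2. The Cep85 share, taken over all 3 promoters, was 19.4% ± 1.48, 38.7% ± 6.72 and 18.7% ± 0.485 in run 1, and 21.5% ± 2.20, 39.7% ± 9.001 and 16.7% ± 1.22 in run 2. The Caprin1 share was 25.8% ± 0.523, 36.9% ± 1.81 and 32.1% ± 1.21 in run 1, and 29.2% ± 2.75, 38.5% ± 1.43 and 34.0% ± 2.47 in run 2, so that Post lay between Pre and Mid in both runs. The Auts2 share was 15.8% ± 1.26, 34.5% ± 13.2 and 16.4% ± 3.66 in run 1, with Post at the level of Pre, but 10.7% ± 1.25, 32.4% ± 4.60 and 27.3% ± 3.50 in run 2, with Post near Mid.

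**Figure D3:**
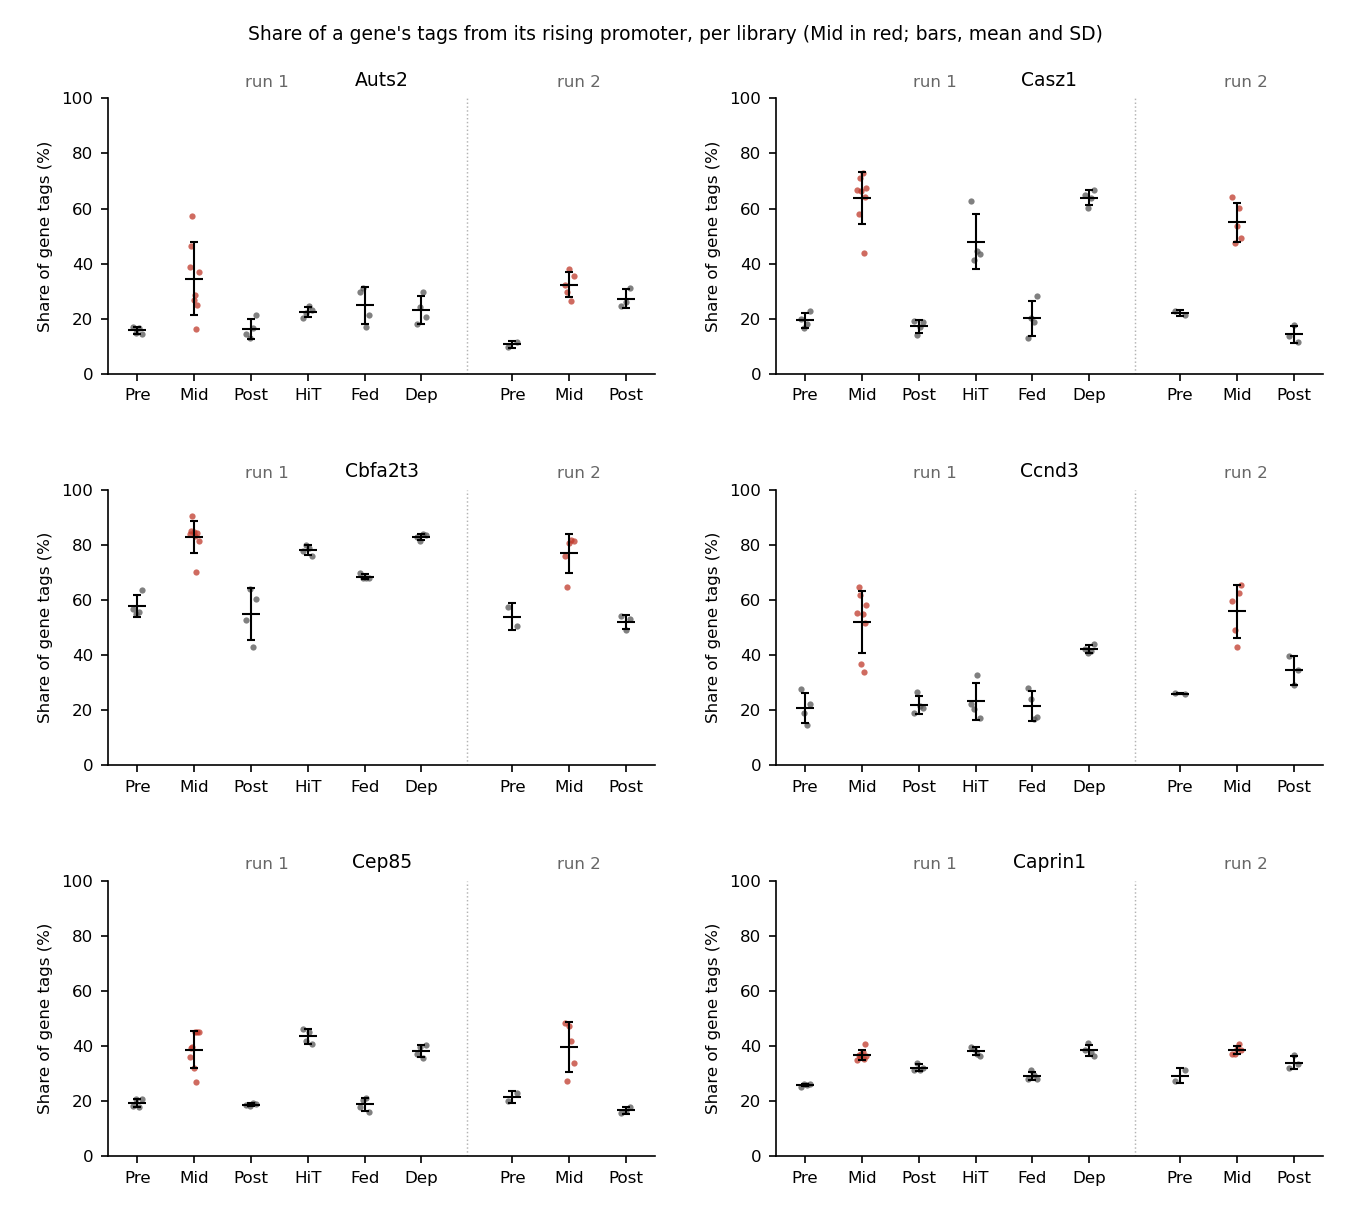
Share of each gene's tags from its rising promoter, in percent on an axis from 0 to 100, with 1 point per mouse, Mid in red and the other groups in grey, and bars for mean and SD. The Mid points of run 2 lie above those of Pre at all 6 genes, and those of Post overlap Mid at Auts2, overlap those of Pre at Cbfa2t3, and lie below those of Pre at Casz1 and Cep85.

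Dep and Fed mice were both in the cool and did not enter torpor. They differ in food and in the repeated touching of the Dep mice, which cannot be told apart here. In this comparison and in HiT against Fed, the spread was estimated over all libraries of run 1. These include the Mid and Pre libraries on which the genes were chosen. In run 1, 11 of the 13 promoters were called in Dep against Fed, where 38.6% of all promoters were called, and the usage test called 5 of the 6 genes, where it called 40%. At Casz1 the rising promoter stood at 10.97, 10.01, 10.6 and 11.2 CPM in Dep and at 2.56, 3.03, 2.42 and 3.90 in Fed, and the falling promoter at 5.96, 6.57, 5.97 and 5.56 in Dep and at 17.2, 11.8, 10.3 and 9.94 in Fed. Neither pair of groups overlapped, with log2 differences of 1.83 (standard error 0.21, FDR 6.57e-07) and -1.03 (standard error 0.16, FDR 2.96e-05). The Casz1 share was 64.0% ± 2.70 in Dep and 20.1% ± 6.28 in Fed (n = 4 each).

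Ccnd3 and Cep85 also had opposite calls in Dep against Fed. The rising promoter of Ccnd3 stood at 5.02, 3.77, 5.20 and 5.31 CPM in Dep and at 2.98, 2.82, 2.02 and 2.08 in Fed, a log2 difference of 0.97 (FDR 0.00264). Its falling promoter was lower by a log2 difference of -0.47 (FDR 0.0404). This call near the threshold was lost with the replicate number as a block (FDR 0.0600), in a fit of all 38 libraries (FDR 0.0547) and without any 1 of Dep replicates 1, 2 and 4, Fed replicates 2, 3 and 4, HiT replicates 1 and 4, Mid replicate 8 and Post replicate 1 (FDR 0.0529 to 0.118). The rising promoter of Cep85 stood at 18.2, 17.96, 16.2 and 18.3 CPM in Dep and at 10.8, 11.01, 10.9 and 10.1 in Fed, a log2 difference of 0.72 (FDR 0.000156). Under library size scaling it was 0.50 (FDR 0.0701), which ended that call and with it the opposite calls of the gene. Its internal promoters were lower, at -0.73 (FDR 5.00e-06) and -0.69 (FDR 0.0130), the latter not without Dep replicate 4 (FDR 0.0518) or Fed replicate 4 (FDR 0.0603). Opposite calls were found in 30 of 458 genes (6.55%) in this comparison. Cbfa2t3 changed by its falling promoter alone, at -1.13 (FDR 8.49e-05), with 0.03 at the rising one (95% interval -0.33 to 0.39, FDR 0.915). Caprin1 changed by its rising promoter, at 0.50 (FDR 0.000347), which library size scaling did not call (0.29, FDR 0.297).

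Auts2 behaved differently. Both of its promoters were lower in Dep than in Fed, at -1.09 for the rising promoter (FDR 0.00999) and -0.90 for the falling one (FDR 3.85e-05), its share was 23.1% ± 5.05 against 24.9% ± 6.75, and the usage test gave FDR 0.658. Its summed tags were lower by a log2 difference of -0.92 (FDR 3.59e-06), and of the others Cep85 was lower at -0.28 (FDR 0.0263, and 0.0571 to 0.0828 without any 1 of Dep replicates 2 and 3 and Fed replicates 1 and 4), where 40.8% of all genes were called. The sum of Casz1 was called without Fed replicate 1 (FDR 0.0150) and that of Cbfa2t3 without Dep replicate 3 (FDR 0.0483). The usage FDR of the 5 genes called was 1.06e-12 for Casz1, 5.19e-08 for Cep85, 0.000125 for Caprin1, 0.000188 for Ccnd3 and 0.00058 for Cbfa2t3, and the same 5 genes were called in every alternative tried. Under library size scaling the median log2 difference of all promoters was -0.23, against -0.0043 after TMM, and 17.1% of all calls were higher in Dep, against 48.2% after TMM.

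HiT mice were fasted in the warm. Against Fed, 11 of the 13 promoters were called, where 43.2% of all were, and 4 of the 6 genes in the usage test, where 41.5% were. The falling promoter of Cep85 at chr4:134154468 was at its lowest here, at 5.19, 4.86, 5.15 and 5.33 CPM in HiT and 20.3, 19.3, 20.1 and 28.3 in Fed, a log2 difference of -2.10 (standard error 0.22, FDR 1.15e-07), or 0.233-fold. The rising promoter of Cep85 gave 0.31 (95% interval 0.04 to 0.58, FDR 0.0607) and was not called, though with the replicate number as a block (FDR 0.00739), in a fit of HiT and Fed alone (FDR 0.0343) and without Mid replicate 7 (FDR 0.0255) it was. Casz1 was the 1 gene of the 6 with opposite calls, at 1.12 for the rising promoter (FDR 0.000144) and -0.83 for the falling one (FDR 0.000221), where 35 of 458 genes (7.64%) had them. The 4 HiT libraries of its rising promoter stood at 9.27, 6.03, 5.61 and 5.08 CPM, all above the 4 Fed libraries.

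In Cbfa2t3 and Auts2 both promoters were lower in HiT than in Fed. The values were -0.81 (FDR 0.00069) and -1.53 (FDR 1.75e-06) for the rising and falling promoter of Cbfa2t3, and -1.37 (FDR 0.00156) and -1.13 (FDR 1.77e-06) for those of Auts2. In Ccnd3 both promoters were higher, at 0.61 (FDR 0.0395) and 0.51 (FDR 0.0220), and neither call held under library size scaling (FDR 0.266 and 0.351) or in a fit of HiT and Fed alone (FDR 0.0594 and 0.0556). The rising call was also lost without any 1 of Fed replicates 3 and 4 and HiT replicates 1, 2 and 3 (FDR 0.0543 to 0.103), and the falling call without Fed replicate 1 or HiT replicate 1, 2 or 4 (FDR 0.0524 to 0.0808). The usage test called Cep85 (FDR 3.92e-13), Casz1 (2.19e-08), Caprin1 (0.000158) and Cbfa2t3 (0.0334) but not Auts2 (0.570) or Ccnd3 (0.815), and the call of Cbfa2t3 was lost without any 1 of 5 libraries, HiT replicates 1, 2 and 3 and Fed replicates 2 and 4 (FDR 0.0561 to 0.0793). Summed tags were called in 45.1% of all genes, and in Auts2 (-1.17, FDR 8.49e-08), Cbfa2t3 (-0.99, FDR 1.48e-06), Cep85 (-0.90, FDR 1.87e-07) and Ccnd3 (0.54, FDR 0.000603), and without HiT replicate 3 also in Caprin1 (FDR 0.0355). With library size scaling 23.7% of all calls were higher in HiT, against 53.8% after TMM, and the median log2 difference of all promoters was -0.21. Dep against Fed and HiT against Fed share the 4 Fed libraries.

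**Figure D4:**
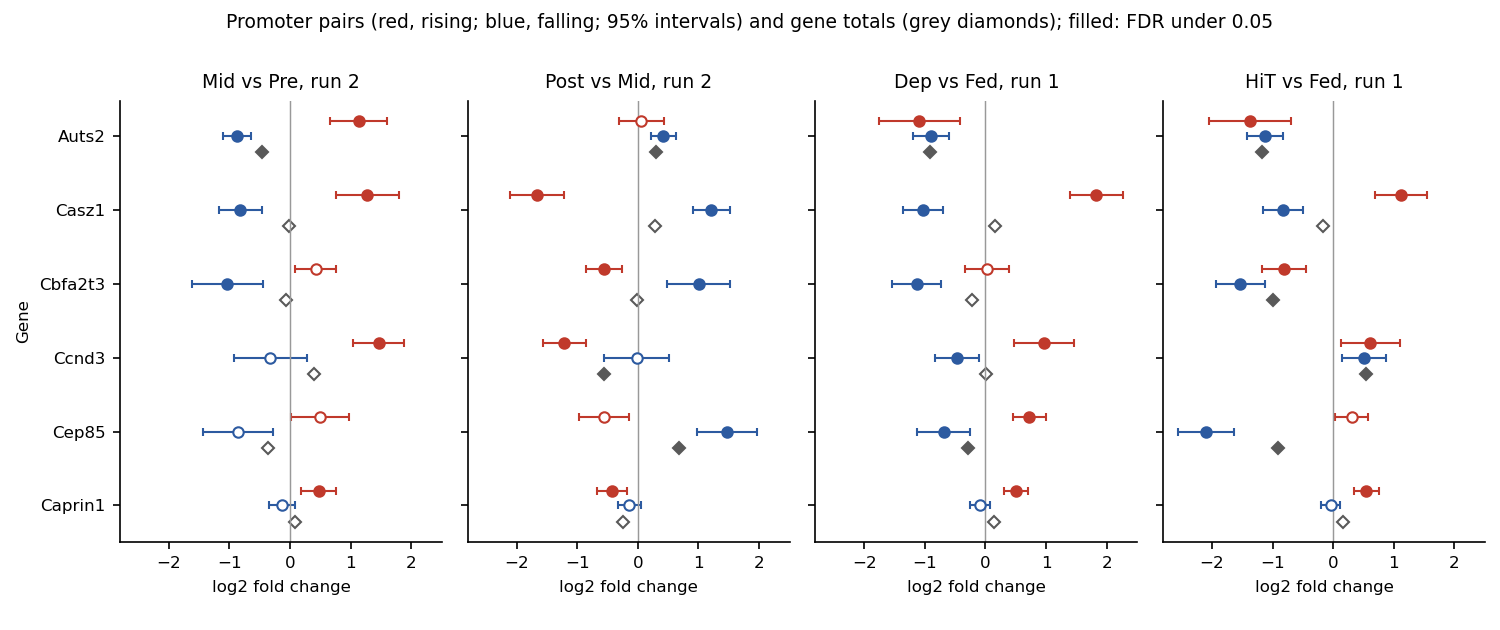
Log2 fold change of the rising (red) and falling (blue) promoter with its 95% interval, and of the summed tags of the gene (grey diamonds), in the 4 tested comparisons, with filled symbols for FDR under 0.05. Casz1 has filled symbols on opposite sides of 0 in all 4 comparisons, and both Auts2 promoters lie below 0 in the 2 comparisons against Fed.

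Over the 24 pair ratios compared (6 genes in 4 comparisons), an exact permutation test gave p = 0.0286 or 0.0357, two-sided and the smallest possible at these group sizes, for 14. None passed 0.05 after Benjamini-Hochberg adjustment, where the lowest value was 0.0612. The groups did not overlap in these 14 nor in the 6 ratios of Mid against Pre. Such ratios were not computed for other genes, so these counts have no background to be set against. The 4 ratios whose groups overlapped were those of Auts2 in Post against Mid (exact permutation p = 0.143), Dep against Fed (0.743) and HiT against Fed (0.600), and of Ccnd3 in HiT against Fed (0.714).

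Across the 6 conditions of run 1 the groups can be ordered by share, as a description. The Casz1 share ran from Dep (64.0%) and Mid (63.8%) through HiT (48.0% ± 10.01) to Fed (20.1%), Pre (19.4%) and Post (17.3%), where Dep and Mid, and the last 3, differed by less than their SDs. The Cep85 share was highest in HiT (43.5% ± 2.63), within the SD of Mid (38.7%), which lay beside Dep (38.2% ± 2.20), and was lower in Pre (19.4%), Fed (18.8% ± 2.36) and Post (18.7%), which lay together. The Ccnd3 share fell from Mid (52.0%) to Dep (42.002% ± 1.41), within the SD of Mid, and then to HiT (23.1% ± 6.64), Post (21.9%), Fed (21.5% ± 5.35) and Pre (20.8%), which lay together. HiT thus stood with Mid and Dep, the other fasted groups, at Cep85 and with the fed groups at Ccnd3, though it was not tested against Mid, Pre or Post.

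The Cbfa2t3 share was equal in Mid (82.8%) and Dep (82.8% ± 1.09), then 78.1% ± 1.66 in HiT, within the SD of Mid, and 68.3% ± 0.908 in Fed, 57.8% in Pre and 54.9% in Post, with the last pair within their SDs. The Caprin1 share was 38.5% ± 2.01 in Dep, 38.1% ± 1.54 in HiT and 36.9% in Mid, within their SDs, then 32.1% in Post, 29.2% ± 1.497 in Fed and 25.8% in Pre. The Auts2 share was highest in Mid (34.5% ± 13.2), then 24.9% in Fed, 23.1% in Dep and 22.5% ± 1.85 in HiT, each within the SD of its neighbour, and 16.4% in Post and 15.8% in Pre.

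Between Dep and Mid of run 1, both fasted in the cool, 12 of the 13 promoters had log2 differences between -0.34 (Ccnd3 rising) and 0.28 (Cep85, chr4:134154468). Without Mid replicate 6, which stood apart at several promoters, the limits were -0.41 at the rising Ccnd3 promoter and 0.46 (standard error 0.14) at the Cep85 promoter, and the falling Cbfa2t3 promoter went from 0.21 to 0.36 (standard error 0.14). The exception was the rising promoter of Auts2, which stood at 4.50 ± 0.885 CPM in Dep (n = 4) and 8.50 ± 4.59 in Mid (n = 8), a log2 difference of -0.91 (standard error 0.29). Its Mid range of 4.60 to 18.7 CPM overlapped the Dep range of 3.77 to 5.73. The difference was not tested, since the Mid libraries of run 1 chose the genes.

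How the promoters of a pair varied together differed among the genes and between the runs. Over the 28 libraries of run 1, which share tissue, run and group structure, the Pearson correlation of the pair's log2 levels was -0.91 for Casz1, -0.54 for Ccnd3, -0.44 for Cep85, -0.19 for Cbfa2t3, -0.06 for Caprin1 and 0.07 for Auts2. Over the 10 libraries of run 2 it was -0.95 for Casz1, -0.35 for Ccnd3, -0.66 for Cep85, -0.73 for Cbfa2t3, 0.22 for Caprin1 and -0.76 for Auts2. With the group means removed it was -0.56 for Casz1, -0.38 for Ccnd3, 0.04 for Cep85, -0.10 for Cbfa2t3, 0.70 for Caprin1 and -0.43 for Auts2 in run 1, and -0.34, -0.27, -0.04, -0.03, 0.53 and -0.35 for these genes in run 2. The closely spaced Caprin1 promoters thus moved together among mice of a group while their group means moved apart.

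The promoters of other genes most like each promoter were found by the correlation of log2 levels over the 28 libraries of run 1, out of 9439 promoters, with the value over the 10 libraries of run 2 beside it. For the rising Casz1 promoter they were those of Mafk, a small Maf transcription factor (0.97 and 0.96), and Cnksr1, a scaffold protein (0.96 and 0.98). For the rising Ccnd3 promoter they were Per1, a core clock gene (0.94 and 0.94), and Tsc22d3, which encodes the glucocorticoid-induced protein GILZ (0.94 and 0.97). The falling Cbfa2t3 promoter was most like Tfrc, the transferrin receptor (0.95 and 0.90), and Kdr, the VEGF receptor of endothelium (0.94 and 0.78). The falling Ccnd3 promoter was most like the cytoskeletal genes Actb (0.91 and 0.73) and Tmsb4x (0.90 and 0.73).

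The likeness was kept in run 2 at some promoters and not at others. The falling Casz1 promoter was most like Sec14l5 (0.95 and 0.95) and Filip1l (0.94 and 0.95), the falling Cep85 promoter at chr4:134154468 like Apol6 (0.94 and 0.90) and Eef1g (0.92 and 0.95), the rising Cep85 promoter like Dnttip2 (0.93 and 0.74) and Itgb5 (0.92 and 0.80), and the falling Auts2 promoter like Podxl (0.94 and 0.89) and Zfp46 (0.93 and 0.81). The rising Caprin1 promoter was most like Ptges3, a chaperone (0.90 and 0.82), and Acot2 (0.88 and 0.85), and the rising Cbfa2t3 promoter like Hnrnpu (0.90 and 0.89) and Hccs (0.90 and 0.46). The rising Auts2 promoter had Rere (0.93 in run 1 but 0.15 in run 2) and Rbpms (0.90 and 0.43). The falling Caprin1 promoter had no close match, with the falling promoter of Ccnd3 (0.64 and 0.41) and Rexo4 (0.62 and 0.37) nearest.

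Genes that work with the 6 products were counted from lists, each gene by its most used promoter. The share of all promoters called, in either direction, was 9.74% in Mid against Pre, 16.4% in Post against Mid, 38.6% in Dep against Fed and 43.2% in HiT against Fed. A list for the G1 phase, with 12 measured genes, held cyclins and CDKs but also CDK inhibitors, pocket proteins and the transcription factor E2f4. Its median in Mid against Pre of run 2 was 0.09 on the log2 scale, against 0.0035 over all promoters. The cyclins and CDKs measured, Ccnd1, Ccnd2, Cdk4 and Cdk2, were not called there. In that comparison 2 genes of the list were higher and none lower. They were Cdkn1a, the CDK inhibitor p21 (2.31, FDR 0.000886), and Rbl2, the pocket protein p130 (0.65, FDR 0.0446). Both were lower in Post than in Mid, at -2.72 (FDR 3.78e-05) and -0.94 (FDR 0.00243), and 1 gene of the list was higher there. In Dep against Fed 2 were higher and 3 lower, with Cdkn1a at 2.53 (FDR 5.18e-07) and Rbl2 at 0.59 (FDR 0.000472). In HiT against Fed 7 were higher and 1 lower, with Cdkn1a at 1.33 (FDR 0.000434) and Rbl2 at 0.53 (FDR 0.000986). Besides Cdk4 and Cdk2, those higher in HiT were the CDK inhibitors Cdkn1a, Cdkn1b, Cdkn1c and Cdkn2d and the pocket protein Rbl2. The list median was -0.13, -0.10 and 0.39 in these 3 comparisons, against -0.01, -0.0043 and 0.0068 over all promoters.

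Of 5 measured centrosome genes, Tubg1, a gamma-tubulin, was lower in Mid than in Pre (-0.58, FDR 0.0101) and higher in Post than in Mid (0.49, FDR 0.00618), with -0.09 in Dep (FDR 0.573) and 0.09 in HiT (FDR 0.596) against Fed. No gene of that list was higher in Mid than in Pre, 1 was lower in Post than in Mid, 1 was higher and 1 lower in Dep than in Fed, and none was called in HiT by edgeR, by DESeq2 or at an unadjusted p under 0.05. The list medians were 0.18, -0.16, -0.15 and -0.05.

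In the other lists edgeR's quasi-likelihood test called no gene in Mid against Pre of run 2. Of 11 ETO corepressor partners, 4 had an unadjusted p under 0.05 and DESeq2 called 1, and of 12 AUTS2-type PRC1 genes these counts were 2 and 0, of 11 NuRD genes 2 and 1, and of 15 stress granule genes 2 and 1. The list medians were -0.02, 0.11, -0.03 and 0.18. The largest differences in these lists were those of Runx1, a partner of ETO proteins (1.02, FDR 0.0536), and Cbfa2t2 (0.46, FDR 0.0902), of Csnk2a2 (0.34, FDR 0.380) and Fbrs (0.33, FDR 0.300), of Hdac2 (-0.36, FDR 0.0528) and Chd4 (0.33, FDR 0.137), and of Pabpc1, the cytoplasmic poly(A)-binding protein (0.56, FDR 0.0811), and Ddx3x (0.35, FDR 0.591).

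In Post against Mid the ETO partners had 2 genes higher and none lower, the PRC1 genes 1 and 1, the NuRD genes 0 and 1 and the stress granule genes 1 and 1. In Dep against Fed these counts were 1 and 5, 0 and 3, 1 and 1, and 4 and 3, where 38.6% of all promoters were called. In HiT against Fed they were 1 and 3, 0 and 4, 5 and 1, and 4 and 4, where 43.2% were. Runx1 was higher than in Fed in Dep (0.71, FDR 0.0108) and in HiT (2.02, FDR 1.02e-07), and so was Pabpc1 (0.69, FDR 0.000878, and 0.91, FDR 3.28e-05). Cbfa2t2 was lower in both (-0.41, FDR 0.0191, and -0.54, FDR 0.00252), as was Hdac2 (-0.58, FDR 0.00126, and -0.34, FDR 0.0384), while Chd4 was higher in both (0.32, FDR 0.0171, and 0.42, FDR 0.00208). The median of the NuRD list was -0.09 in HiT against Fed, although 5 of its genes were called higher there.

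Markers of other cell types, summed over the most used promoter of each gene, moved with some comparisons, in which 43.2% (HiT against Fed) and 38.6% (Dep against Fed) of all promoters were called. All 7 measured macrophage genes were higher in HiT than in Fed, with a summed level of 173 to 391 CPM against 58.4 to 101, beside the higher falling Ccnd3 promoter in HiT, and their part in that result was not tested. Of 8 endothelial genes, 5 were lower in HiT than in Fed, with sums of 256 to 293 against 319 to 348 CPM, and 4 were lower and 1 higher in Dep, with sums of 285 to 332 CPM, beside the lower falling Cbfa2t3 promoter in both, and their part was not tested. In Mid against Pre of run 2, 1 of 8 endothelial genes was lower, with sums of 272 to 323 against 278 to 313 CPM, and 1 of 7 macrophage genes was higher, with sums of 50.2 to 99.3 against 61.5 to 76.9. The 4 measured neutrophil genes were higher in Dep than in Fed, with sums of 0.283 to 133 CPM (median 0.838) against 0.160 to 0.644, while the markers Ltf, Elane, Mpo and Cxcr2 had no cluster. Leaving out any 1 library of run 1 left 9 to 11 of the 13 promoters and 5 of the 6 usage genes called in Dep against Fed. None of 10 cell division genes had a cluster. Of 4 red blood cell genes 3 were lower in both Dep and HiT than in Fed, of 8 fast muscle genes 2 and 4, and of 7 slow muscle genes 2 in HiT.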

How the data were processed

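Capped 5′ ends were sequenced by CAGE from soleus muscle in 38 libraries (28 in run 1, 10 in run 2). The authors aligned tags to mm10 (GRCm38), per the labels with BWA and HISAT2, clustered them into promoters over all libraries and deposited raw tag counts per cluster. The authors also deposited TPM values, used here to read the share of each library in clusters (93.1% to 95.6%).

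Counts of each run were fitted with all groups of that run in edgeR 4.0.16 (R 4.3.3; TMM scaling, quasi-likelihood test, Benjamini-Hochberg FDR, threshold 0.05) over 10776 promoters with any tag in run 1 and 10816 in run 2. Usage was tested with diffSpliceDGE and gene totals on the summed counts. Pair ratios (0.5 tags added) were compared with two-sided exact permutation tests (SciPy 1.17.1). Correlations used log2(CPM + 0.5). limma 3.58.1 and DESeq2 1.42.0 served as alternatives. Fold changes were also refitted without TMM, in other windows and filters, and without each library, and, added after seeing the data, with the sequencing lane as a term in run 2 and without Mid replicate 6 in the descriptions of run 1. No 2 libraries of a group were duplicates (72 pairs, lowest chi-square 12.5 per promoter). Mice are the replicates. The scripts were tested on simulated data.

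The genes, promoters and lists were chosen with earlier results of these data known. All promoters of the 6 genes are named. The pair of a gene is its promoters with the highest and lowest change from Pre to Mid in run 1 among those with a mean of 1 CPM or more, like promoters are the 2 of other genes with the highest correlation in run 1, and list genes are the 2 with the largest absolute change among those called in Mid against Pre of run 2, or of all where none was called. The other genes with opposite calls in that comparison were named by the difference of their promoters. Promoter sequences are from RefSeq, and gene models from GENCODE vM21.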

Additional observations from a re-analysis of the deposited data

Results flagged for a closer look

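Of 133 group values checked (levels and shares in groups of 4 to 8 mice), 8 held a library far from the others by Dixon's test, and chance gives about 1 in 20. Mid replicate 6 of run 1 accounts for 4 of them. It had 23.9 CPM at the falling Auts2 promoter, against 12.8 to 17.7 in the other 7 Mid libraries. At the rising Casz1 promoter it had 6.50 CPM against 10.9 to 14.4, and at the Cep85 promoter chr4:134154468 it had 20.6 CPM against 7.42 to 13.5. Its Cbfa2t3 share was 69.9% (exact 95% interval 65.6% to 74.1%) against 81.4% to 90.5%. Without it the change from Pre to Mid at the rising Casz1 promoter was 2.19 in place of 2.09, and at the falling promoters -0.71 in place of -0.61 (Auts2), -0.99 in place of -0.83 (Cep85) and -1.43 in place of -1.29 (Cbfa2t3).

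The other 4 were in single libraries of different groups. Fed replicate 4 had 28.3 CPM at the Cep85 promoter chr4:134154468, against 19.3 to 20.3 in the other Fed libraries, and without it the call in Dep against Fed was lost (-0.54, FDR 0.0603). HiT replicate 1 had a Casz1 share of 62.9% (exact 95% interval 58.6% to 67.0%), against 41.2% to 44.4%. Fed replicate 1 had a Cbfa2t3 share of 69.7% (65.7% to 73.4%), against 67.8% to 68.0%, and Mid replicate 7 of run 1 had a Caprin1 share of 40.7% (38.7% to 42.8%), against 34.96% to 37.7%. These intervals cover counting error only.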

How the results depend on the processing

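Without TMM scaling the promoters called in HiT against Fed fell from 4657 to 2961. With the lane as a term, added after seeing the data, Post against Mid of run 2 had 485 promoters in place of 1772, 3 of the 13 in place of 9 and 62 usage genes in place of 152. Leaving out each library in turn, Mid against Pre of run 2 had 260 to 1320 promoters (1053 with all), 2 to 8 of the 13, 43 to 101 usage genes (93 with all) and 186 to 1128 gene totals (929 with all), lowest without a Pre library, which leaves 1 Pre mouse that is assumed to vary like the other groups.

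Direction turned only in values that were not called. Without TMM these were, in Dep against Fed, -0.16 at the rising Cbfa2t3 promoter, -0.15 for the sum of Ccnd3 (-0.0027 with a window of 100 bp) and -0.014 for that of Caprin1, and, in Post against Mid, 0.0510 at the falling Ccnd3 promoter (0.0017 in a fit of all 38 libraries, 0.59 with the lane) and 0.0648 for the sum of Cbfa2t3. The rising Auts2 promoter gave -0.20 in Post against Mid with the lane. Leaving out each library in turn gave ranges across 0. In Dep against Fed these were -0.10 to 0.14 at the rising Cbfa2t3 promoter and -0.0386 to 0.0913 for the sum of Ccnd3, and in HiT against Fed -0.11 to 0.0057 at the falling Caprin1 promoter. In Mid against Pre of run 2 they were -0.25 to 0.0057 at the falling Caprin1 promoter and, for sums, -0.0832 to 0.0319 (Casz1), -0.18 to 0.0601 (Cbfa2t3) and -0.0073 to 0.18 (Caprin1). In Post against Mid of run 2 they were -0.0286 to 0.16 at the rising Auts2 promoter, -0.14 to 0.16 at the falling Ccnd3 promoter and -0.10 to 0.0360 for the sum of Cbfa2t3. Without Mid replicate 6 the descriptions of run 1 gave 0.0165 at the falling Caprin1 promoter in Post against Mid and 0.0608 at the falling Auts2 promoter in Dep against Mid. The cause was not tested. Over all alternatives, 1738 fold changes kept direction and side of the threshold, 86 lost a call, 19 gained one and 37 turned, and of the usage results 610 kept their side and 10 lost a call.

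Samples of run 1 share replicate numbers, but each library came from its own mouse, so the numbers do not mark the same animal. Same-numbered samples of different groups had correlations of their deviations from -0.60 to 0.51 (median -0.05, 60 pairs, 19 above 0.1). Samples with different numbers were not compared, so these values cannot tell whether a number marks a shared batch. With the replicate number as a block, 4075 promoters were called in Dep against Fed (4160 without) and 4529 in HiT against Fed (4657 without), and 10 and 12 of the 13. No paired analysis was possible because, in run 2, Mid shares no replicate number with Pre or Post, the groups it was compared with. Libraries of run 2 held 9359994 to 20914855 tags in clusters and those of run 1 18257657 to 39176649. Run 2 also had fewer mice in each of its groups, and both limits cannot be told apart. A promoter not called in run 2 may still have changed.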

Other observations

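Cep85 has a further cluster on its strand at chr4:134156233, between the internal promoters, which lies more than 500 bp from any annotated 5′ end and so was not counted as a promoter of the gene. Its level in run 1 was 7.84 ± 0.337 CPM in Pre (n = 4), 6.41 ± 1.09 in Mid (n = 8), 5.89 ± 0.247 in Post, 5.49 ± 0.984 in HiT, 9.27 ± 0.366 in Fed and 8.56 ± 1.38 in Dep (n = 4 each). In run 2 it was 12.6 ± 2.50 in Pre (n = 2), 9.22 ± 1.54 in Mid (n = 5) and 7.72 ± 1.47 in Post (n = 3). Unlike the falling Cep85 promoters, its mean was lower in Post than in Mid in both runs, by less than the SD of Mid.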
